A study of Homo sapiens with 15 samples.

Results

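The largest variation among the 9 KIF20A depletion libraries of MDA-MB231, a triple-negative line from a human breast cancer, divided them in a way that cut across their labels. The division was taken from the values themselves: the 9 libraries, of 15 in the series, were placed on the first principal component of their log2 CPM values (counts as a share of the library, scaled to 1000000), and the sign of the score set the side. Side A held 5 libraries, namely CTRL replicate 3, SG1 replicates 1, 2 and 3 and SG3 replicate 1. Side B held 4 libraries, namely CTRL replicates 1 and 2 and SG3 replicates 2 and 3. Because the expression values chose the sides, every difference between them is given as a description, with no test.

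Per the labels, the CTRL libraries are WT and the SG1 and SG3 libraries carry a KIF20A knockdown; the sources used here do not say what SG1 and SG3 stand for, or whether replicates are separate cultures or clones. The other 6 libraries are 3 EV libraries of WT genotype and 3 libraries of KIF20A overexpression, titled KIF20AOE and written KIF20A_OE here; EV is not spelled out in the labels. All share the line and its growth medium, and the labels give no extraction or sequencing batch. Library totals overlapped between the sides, at 41424338 to 51018667 counts in side A and 40895819 to 49477386 in side B, and the share of mitochondrial counts overlapped as well, at 1.13% to 3.82% and 1.13% to 2.84%. All 14 genes of a mesenchymal marker list for this line were detected, with a summed level of 7450 to 8285 CPM in side A and 7552 to 8699 CPM in side B. SPARC, 1 of the 14, lay at 0.246 to 1.01 CPM.

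Human genes differ widely in base composition. Genes in GC-rich, gene-dense stretches tend to be compact, and those in AT-rich stretches tend to have long introns and long 3' untranslated regions. Base composition follows gene families, since many centrosomal, mitotic and zinc finger genes are AT-rich, and it is also known to affect how cDNA fragments amplify and sequence. KIF20A, the target of the study, encodes a motor protein of the kinesin-6 family needed for the last step of cell division.

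The coding sequences of 6 genes from the 2 ends of the split are shown as examples, picked for their contrast in base composition. They do not stand for every gene: the side B genes SNHG32, SAA1, ATP5IF1 and PFDN6, which differed more than COL4A2, have a transcript GC of 50.3% to 51.6%. Each line holds the first 120 coding bases, 5' to 3', of the GENCODE 29 transcript used for that gene, with G and C in capitals. SH3BGRL (chrX:81201943-81298547, plus strand), FCHO2 (chr5:72955981-73090522, plus strand) and CEP290 (chr12:88049014-88142216, minus strand) were higher in side A. EDF1 (chr9:136862119-136866286, minus strand), FAM207A (chr21:44940010-44976989, plus strand) and COL4A2 (chr13:110305812-110513209, plus strand) were higher in side B. All coordinates are GRCh38.
SH3BGRL: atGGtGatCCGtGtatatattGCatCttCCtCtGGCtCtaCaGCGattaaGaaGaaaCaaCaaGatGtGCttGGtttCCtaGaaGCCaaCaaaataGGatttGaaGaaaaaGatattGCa
FCHO2: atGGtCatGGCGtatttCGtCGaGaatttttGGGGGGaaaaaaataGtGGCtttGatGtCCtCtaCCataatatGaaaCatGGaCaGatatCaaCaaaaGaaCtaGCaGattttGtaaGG
CEP290: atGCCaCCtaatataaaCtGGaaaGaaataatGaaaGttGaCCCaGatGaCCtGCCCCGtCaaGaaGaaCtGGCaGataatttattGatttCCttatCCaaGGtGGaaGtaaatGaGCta
EDF1: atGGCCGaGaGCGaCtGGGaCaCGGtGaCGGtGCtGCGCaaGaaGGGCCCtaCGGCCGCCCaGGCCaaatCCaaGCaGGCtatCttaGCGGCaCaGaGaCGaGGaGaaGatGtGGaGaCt
FAM207A: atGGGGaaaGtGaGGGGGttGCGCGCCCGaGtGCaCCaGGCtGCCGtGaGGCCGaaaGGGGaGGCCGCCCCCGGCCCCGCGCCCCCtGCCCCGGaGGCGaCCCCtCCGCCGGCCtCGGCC
COL4A2: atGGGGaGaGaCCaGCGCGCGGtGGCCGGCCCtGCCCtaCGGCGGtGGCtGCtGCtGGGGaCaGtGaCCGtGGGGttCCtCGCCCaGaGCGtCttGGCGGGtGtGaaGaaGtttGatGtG
Over these windows the GC content was 37.5% in SH3BGRL, 37.5% in FCHO2 and 38.3% in CEP290. In EDF1 it was 61.7%, in FAM207A 79.2% and in COL4A2 67.5%. The whole transcripts ran the same way, at 34.8% to 37.4% for the first 3 genes and 59.4% to 65.8% for the others. Length did not separate them, since CEP290 (7616 bases) and COL4A2 (6494 bases) are both long and lay on opposite sides.

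The first component held 23.4% of the variance and the second 18.1%. In side A the scores were 24.7 for CTRL replicate 3, 16.6, 22.02 and 16.6 for SG1 replicates 1 to 3 and 32.1 for SG3 replicate 1. In side B they were -27.4 and -21.3 for CTRL replicates 1 and 2 and -33.4 and -30.0 for SG3 replicates 2 and 3. No library lay near zero: the members closest to the border were SG1 replicate 3 at 16.6 and CTRL replicate 2 at -21.3. CTRL and SG3 were each divided, whereas SG1 lay wholly in side A, so SG1 could be compared with only 1 CTRL library of its own side. On the second component the sides were mixed, with side A scores from -40.1 to 38.8 and side B scores from -10.2 to 24.1.

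**Figure D1:**
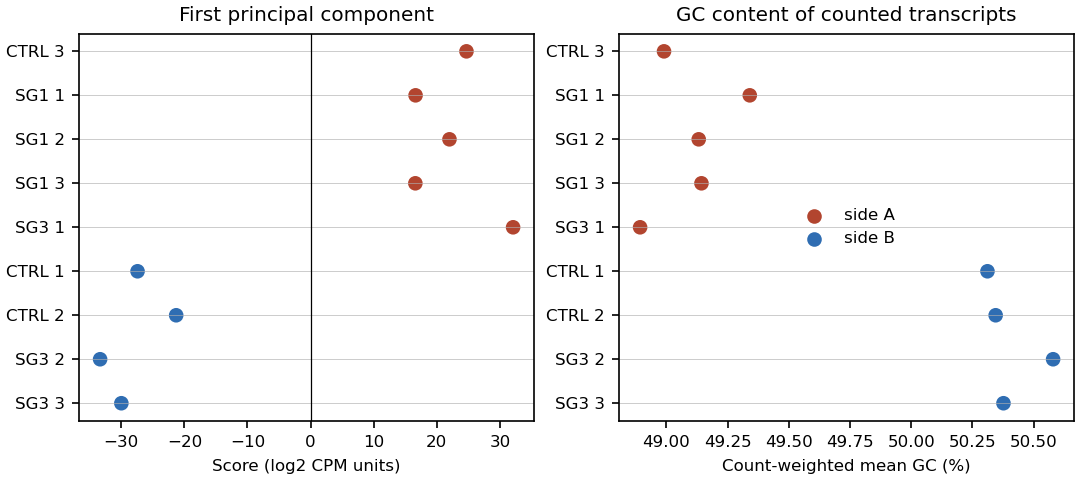
Score on the first principal component (left, log2 CPM units) and count-weighted mean GC content of the transcripts counted (right, percent), 1 point per depletion library, coloured by side. Side A lies at scores of 16.6 to 32.1 and mean GC of 48.9% to 49.3%, and side B at scores of -33.4 to -21.3 and mean GC of 50.3% to 50.6%.

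KIF20A itself did not follow the split. Its level in side A was 160 CPM in CTRL replicate 3, 123, 147 and 91.5 CPM in the SG1 libraries and 86.2 CPM in SG3 replicate 1. In side B it was 154 and 171 CPM in CTRL replicates 1 and 2 and 60.7 and 79.1 CPM in SG3 replicates 2 and 3. The CTRL libraries of both sides lay above every SG1 and SG3 library, and the sides overlapped, with a mean log2 difference of side A minus side B of 0.15. Within side A the level in SG3 relative to CTRL was -0.89 (log2, 1 library against 1), and within side B it was -1.23 (2 against 2).

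Of the 16786 genes kept by the expression filter, 2078 (12.4%) had every side A library above every side B library and 1709 (10.2%) had the reverse. These counts describe the division and are not evidence for it. The differences were mostly small: the median was 1.28-fold among the first and 1.37-fold among the second. With a mean difference of at least 1.5-fold the counts were 97 (0.578%) for side A and 502 (2.99%) for side B, so the larger differences were mostly towards side B. Of these, 36 and 304 were protein-coding genes with a mean of at least 5 CPM.

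SH3BGRL, a small adaptor-like protein, was at 60.03, 70.1, 58.1, 49.96 and 56.1 CPM in side A (CTRL replicate 3, SG1 replicates 1 to 3, SG3 replicate 1) and at 33.2, 43.3, 36.5 and 28.1 CPM in side B (CTRL replicates 1 and 2, SG3 replicates 2 and 3). FCHO2, which initiates clathrin-coated pits, was at 44.99, 57.3, 50.9, 52.8 and 61.9 CPM against 39.1, 33.9, 29.8 and 33.0 CPM in the same order. In both genes the lowest library of side A lay above the highest of side B, and the means differed 1.68-fold and 1.58-fold. CHMP2B, an ESCRT-III subunit that remodels endosomal membranes, differed 1.55-fold and came close to overlap, with SG1 replicate 2 at 41.7 CPM and CTRL replicate 2 at 40.7 CPM.

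ARL6, a small GTPase that recruits the Bardet-Biedl complex to cilia, ran from 13.2 to 19.0 CPM in side A and from 8.88 to 11.7 CPM in side B. CEP290, a scaffold of the ciliary transition zone, was at 49.3 to 71.6 CPM against 33.4 to 40.7 CPM. ESCO1, an acetyltransferase that acts on cohesin, was at 40.9 to 61.7 CPM against 26.4 to 35.1 CPM. CENPU, a subunit of the inner kinetochore, was at 110 to 155 CPM against 79.0 to 94.2 CPM, with CTRL replicate 3 the highest. For ARL6, CEP290 and ESCO1 the highest library was SG3 replicate 1.

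The other 8 of the 15 protein-coding genes with the largest differences towards side A were FAM133A, FAM72D, ATP8A1, BTBD8, EFCAB7, FPGT, TLR3 and DIPK2A, at 1.57-fold (DIPK2A) to 1.87-fold (FAM133A). FAM133A was at 10.7 ± 2.64 CPM in side A (SD, n = 5) and 5.55 ± 0.457 CPM in side B (SD, n = 4). Its 3 SG1 libraries lay at 12.4 to 12.5 CPM, and SG3 replicate 1, at 6.55 CPM, was only just above CTRL replicate 1 at 6.04 CPM. TLR3, a sensor of double-stranded RNA, was at 17.0 CPM in SG3 replicate 1 and at 8.43 to 12.7 CPM in the rest of side A, against 5.90 to 7.78 CPM in side B. FAM72D belongs to a family of near-identical copies, and its value is uncertain to that extent.

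The 502 genes at least 1.5-fold higher in side B had a median transcript length of 1824 bases and the 97 higher in side A one of 2065 bases, both under the 2717 bases of all genes. The 97 were mostly low, with a median of 1.93 CPM. Among all genes free of overlap the median length was 4028.5 bases for the 2078 higher in side A and 2419 bases for the 1709 higher in side B. SNHG32, a small nucleolar RNA host gene that GENCODE 29 lists as protein-coding, differed most. It was at 4.33, 4.89, 4.83, 5.56 and 2.95 CPM in side A and at 19.5, 18.4, 22.8 and 23.2 CPM in side B, in the order of libraries used above. The means differed 4.68-fold, and the values within each side lay close together.

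SAA1, an acute-phase serum amyloid A protein, was at 158, 113, 145, 122 and 126 CPM in side A and at 399, 351, 480 and 497 CPM in side B. ATP5IF1, the inhibitor of the mitochondrial ATP synthase, was at 19.3, 17.7, 15.1, 13.5 and 11.2 CPM against 41.3, 41.2, 45.9 and 44.3 CPM. EDF1, a ribosome-associated coactivator, was at 68.8, 68.2, 62.8, 59.3 and 49.9 CPM against 133, 148, 147 and 139 CPM. In all 3 genes the gap between the sides was wider than the spread of libraries within either side, and SG3 replicate 2 or 3 was the highest library for SAA1 and ATP5IF1, while CTRL replicate 2 was the highest for EDF1. The mean folds of side B over side A were 3.24, 2.85 and 2.30.

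PFDN6, a prefoldin subunit that hands nascent chains to the chaperonin, was at 11.5 to 18.3 CPM in side A and 36.9 to 40.9 CPM in side B. FAM207A was at 7.39 to 12.3 CPM against 21.0 to 31.1 CPM. S100A2, a calcium-binding protein of epithelial cells, was at 19.9 to 25.3 CPM against 47.9 to 58.6 CPM. AGPAT1, an acyltransferase of phospholipid synthesis, and IFI27L2 were both 2.29-fold higher in side B. For AGPAT1 the range was 2.68 to 3.85 CPM against 6.27 to 8.15 CPM. PABPN1, the nuclear poly(A)-binding protein, was nearer to overlap, with SG1 replicate 3 at 11.8 CPM and CTRL replicate 2 at 12.8 CPM.

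Some of the largest differences sat in genes whose reads can be shared. MRPL12 differed 3.99-fold, but 68.2% of its exon bases in GENCODE 29 are shared with another gene, and the shares for TAF10 and SRXN1 were 51.2% and 84.95%. EIF3C has a near-identical copy. The differences of these 4 genes are therefore uncertain. Smaller shares, of 29.1%, 30.2%, 34.8% and 34.9%, were found in SNHG32, AGPAT1, PSMB10 and PFDN6, which may be affected in part. Restricting the genes to those with at most 50% shared exon bases kept 2058 and 1646 genes with no overlap.

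**Figure D2:**
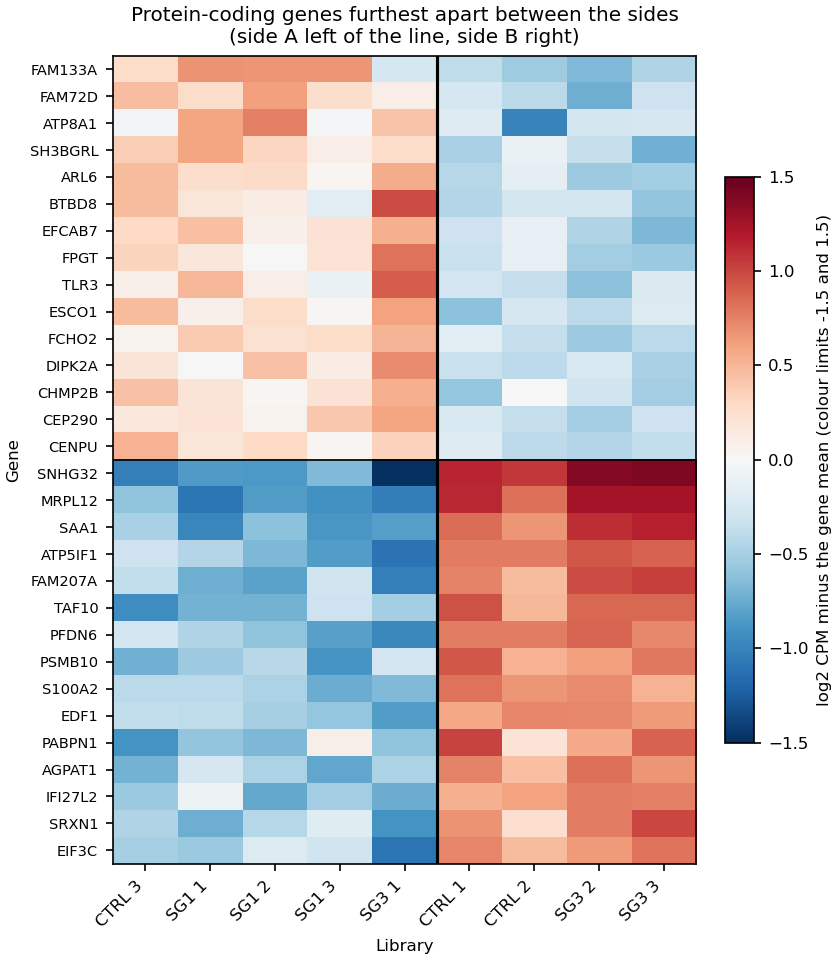
Colour shows log2 CPM minus the mean of the gene over the 9 libraries, with colour limits of -1.5 and 1.5, for the 15 protein-coding genes furthest apart in each direction (rows) in each library (columns, side A left of the line). The upper 15 genes are higher in every side A library, by 1.54-fold to 1.87-fold, and the lower 15 are higher in every side B library, by 2.28-fold to 4.68-fold.

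Among genes that are not protein-coding and average at least 5 CPM, AL161431.1 differed most towards side A without overlap, at 577 to 1064 CPM against 347 to 518 CPM. RN7SL1, the RNA of the signal recognition particle, was at 1.72 to 4.59 CPM in side A and 7.71 to 9.76 CPM in side B. All exon bases of RN7SL1 overlap another annotated gene. Processed pseudogenes also appeared in both directions, with H3P6 1.45-fold higher in side A and RPL41P1 1.96-fold higher in side B, and their reads may come from the parent genes.

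Gene lists were described by the median of their members. Of 46 lists, 21 had a median at least 0.15 (log2) away from the median of all genes, which was 0.01; 10 of them lay towards side A and 11 towards side B. The mean score of a list did not overlap between the sides for 7 of the 46.

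CTRL and SG3 were both divided, so each list was also read within CTRL alone (replicate 3 minus replicates 1 and 2) and within SG3 alone (replicate 1 minus replicates 2 and 3). The 2 share no library, but both were oriented by the sides, which the values of all 9 libraries set. That choice favours agreement between them, so they are not independent readings. Over all genes, 4314 (25.7%) were higher in CTRL replicate 3 and in SG3 replicate 1 than in the other libraries of the same group, and 3784 (22.5%) were lower in both.

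The list of centrosome and cilium genes had a median of 0.37 towards side A, and 20 of its 32 kept members (62.5%) had no overlap in that direction, beside 12.4% of all genes. The median was 0.26 within CTRL and 0.44 within SG3. CEP135, which builds centriole walls, was at 43.6 to 47.7 CPM in side A and 28.3 to 35.1 CPM in side B. BBS9, a subunit of the ciliary BBSome, was at 9.96 to 17.7 CPM against 7.81 to 8.80 CPM.

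Golgins and nucleoporins gave the highest share of the 46 lists: 17 of 23 genes (73.9%) had no overlap towards side A, with a median of 0.36, and 0.34 and 0.36 within CTRL and SG3. EEA1, an endosome tether, was at 108, 101, 107, 105 and 112 CPM in side A and at 74.7, 75.7, 70.2 and 82.3 CPM in side B. GCC2, a golgin of the trans-Golgi network, differed 1.42-fold, and CCDC88A, an actin-binding regulator of G proteins, 1.38-fold. None of these 3 genes had an overlap between the sides.

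Homologous recombination and Fanconi genes had a median of 0.27, with 15 of 34 (44.1%) higher in side A without overlap and 1 (2.94%) in the opposite direction, beside 12.4% and 10.2% of all genes. NBN, a subunit of the MRN complex that senses double-strand breaks, was at 95.5 to 122 CPM against 66.2 to 90.6 CPM. FANCM, a DNA translocase, was 1.40-fold higher in side A, with an overlap because SG1 replicate 1 lay at 22.5 CPM and SG3 replicate 3 at 23.03 CPM.

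ZNF zinc finger genes, mostly transcriptional repressors, had a median of 0.23, and 19 of 71 (26.8%) had no overlap towards side A against 2 (2.82%) towards side B, beside 12.4% and 10.2% of all genes. ZNF420, ZNF518A and ZNF292 differed 1.54-fold, 1.52-fold and 1.49-fold. Nuclear long non-coding RNAs had a median of 0.22, but their members went apart: FTX, TUG1 and OIP5-AS1 were higher in every side A library, by 1.28-fold, 1.17-fold and 1.16-fold. NEAT1, the scaffold of paraspeckles, had its highest level in CTRL replicate 1 of side B, at 495 CPM, and its lowest in CTRL replicate 3 of side A, at 120 CPM.

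Mitotic genes followed the split less evenly. The median was 0.25, with 19 of 57 (33.3%) higher in every side A library and 2 (3.51%) in every side B library, beside 12.4% and 10.2% of all genes. It was 0.23 within CTRL and -0.07 within SG3, and the scores of the sides overlapped with SG3 replicate 1 the lowest of all 9. TTK, a spindle checkpoint kinase, was at 105, 103, 122, 87.3 and 86.7 CPM in side A and 66.3, 70.1, 63.2 and 69.5 CPM in side B. SKA1, a kinetochore-microtubule coupler, was at 15.8 to 17.9 CPM against 10.8 to 12.8 CPM, and CENPK, of the inner kinetochore, at 60.5 to 78.3 CPM against 37.7 to 48.9 CPM. The 2 genes going the other way were SPC24, a subunit of the NDC80 complex, and CDCA5, the cohesin protector sororin.

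The 2 directions within this list followed base composition. Transcript GC was 32.9% (CENPK) to 43.4% (SKA1) in the 19 genes higher in side A, and 53.4% in SPC24 and 55.3% in CDCA5. The cytokinesis list had a median of 0.26, with 7 of 26 (26.9%) higher throughout side A and 2 (7.69%) throughout side B, beside 12.4% and 10.2% of all genes. It was 0.27 within CTRL and 0.06 within SG3, and SG3 replicate 1 had the lowest score of the 9 libraries, -0.17. KIF20B, ECT2 and ANLN, at 34.2%, 36.4% and 40.03% GC, had higher levels throughout side A, and SEPTIN9 and KIF18B, at 61.2% and 62.4%, throughout side B. KIF20B, a relative of KIF20A in the kinesin-6 family, was at 221, 242, 273, 228 and 208 CPM in side A and 155, 163, 145 and 163 CPM in side B, a pattern that KIF20A did not share.

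Towards side B, antigen presentation genes had a median of -0.28, and 7 of 23 (30.4%) had no overlap in that direction, beside 10.2% of all genes. The median was -0.40 within CTRL and -0.52 within SG3. HLA-E, a non-classical class I molecule, was at 96.5, 124, 111, 97.9 and 79.2 CPM in side A and at 165, 186, 179 and 171 CPM in side B. HLA-DRB1, a class II chain, was at 7.73 to 18.7 CPM against 20.1 to 23.01 CPM, and PSMB10, an immunoproteasome subunit, at 3.45 to 5.22 CPM against 9.15 to 12.1 CPM. HLA genes are similar to each other, and the handling of reads shared by them is unknown here. HLA-E and HLA-DRB1 also share a region of chromosome 6 with SNHG32, AGPAT1 and PFDN6, and a part of position was not tested. Relative to all genes the median of the list, -0.29, was -0.19 without SG3 replicate 1.

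Collagen and matrix genes had a median of -0.31, with 7 of 35 (20%) higher in every side B library, beside 10.2% of all genes, and none in every side A library, beside 12.4%. COL4A2, a chain of the basement membrane, was at 207, 152, 200, 146 and 154 CPM in side A and 332, 313, 295 and 286 CPM in side B. COL6A3, a chain of the microfibrillar collagen VI, was at 71.6 and 70.7 CPM in CTRL replicates 1 and 2, apart from all other libraries, and at 36.5 and 29.6 CPM in SG3 replicates 2 and 3. Its side A libraries, at 23.2 to 38.6 CPM, overlapped those SG3 libraries. COL7A1, the anchoring fibril collagen, had an overlap as well, with CTRL replicate 1 at 217 CPM apart from the rest of side B, at 97.1 to 129 CPM.

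The integrin and adhesion list, with a median of -0.20, had 7 of 36 members (19.4%) higher throughout side B, beside 10.2% of all genes, and 3 (8.33%) throughout side A, beside 12.4%. FLNA, an actin crosslinker, was at 3128 to 3932 CPM in side A and 4562 to 5129 CPM in side B. ITGB1, the integrin beta-1 chain, was at 1655 to 2060 CPM in side A and 1349 to 1593 CPM in side B. FLNA has a transcript GC of 62.2% and ITGB1 of 38.5%; the 3 genes towards side A (ITGB1, FERMT2 and PTK2) had 38.5% to 44.3% and the 7 towards side B had 54.3% (ITGB5) to 66.8% (BCAR1). BCAR1, an adhesion scaffold, and ZYX, a LIM protein of focal adhesions, were 1.46-fold and 1.38-fold higher in side B.

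Signalling lists were shifted less. p53 targets had a median of -0.19, but the members free of overlap went both ways, 4 of 20 (20%) towards side A, beside 12.4% of all genes, and 3 (15%) towards side B, beside 10.2%. MDM2, which degrades p53, FAS, a death receptor, ZMAT3 and RRM2B, a ribonucleotide reductase subunit, were 1.20-fold (ZMAT3) to 1.41-fold (RRM2B) higher in side A. Towards side B, PHLDA3, a repressor of AKT, was at 11.7 to 14.3 CPM against 20.2 to 27.8 CPM, and BAX, a pore-forming death protein, at 59.2 to 72.9 CPM against 92.1 to 102 CPM. MDA-MB231 carries a mutant p53, so the list is named for the genes and not for p53 activity. Relative to all genes, the p53 median of -0.20 was -0.12 without CTRL replicate 1 and ran from -0.10 without SG1 replicate 2 to -0.30 without SG1 replicate 3.

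AP-1 and immediate early genes had a median of -0.15, with JUNB, ETV4 and IER5 higher throughout side B, by 1.54-fold, 1.46-fold and 1.43-fold. Of 32 members, 4 (12.5%) were higher throughout side B, beside 10.2% of all genes. Throughout side A 1 (3.1%) was, beside 12.4%, and the scores of the sides overlapped. The AP-1 value relative to all genes, -0.15, was -0.079 without CTRL replicate 1 and -0.054 without SG1 replicate 2. TGF-beta and BMP genes also had a median of -0.15, but relative to all genes it was -0.06 without CTRL replicate 2 and -0.03 without SG1 replicate 3, and within CTRL the median was 0.09. Of 29 members, 4 (13.8%) were higher throughout side A and 2 (6.90%) throughout side B, beside 12.4% and 10.2% of all genes. SMAD2, SMAD4, BMPR1A and ACVR1, signal transducers and receptors, were 1.16-fold (SMAD4) to 1.23-fold higher in side A. SMAD7, the inhibitory SMAD, was at 14.3 to 22.7 CPM against 24.5 to 30.8 CPM.

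**Figure D3:**
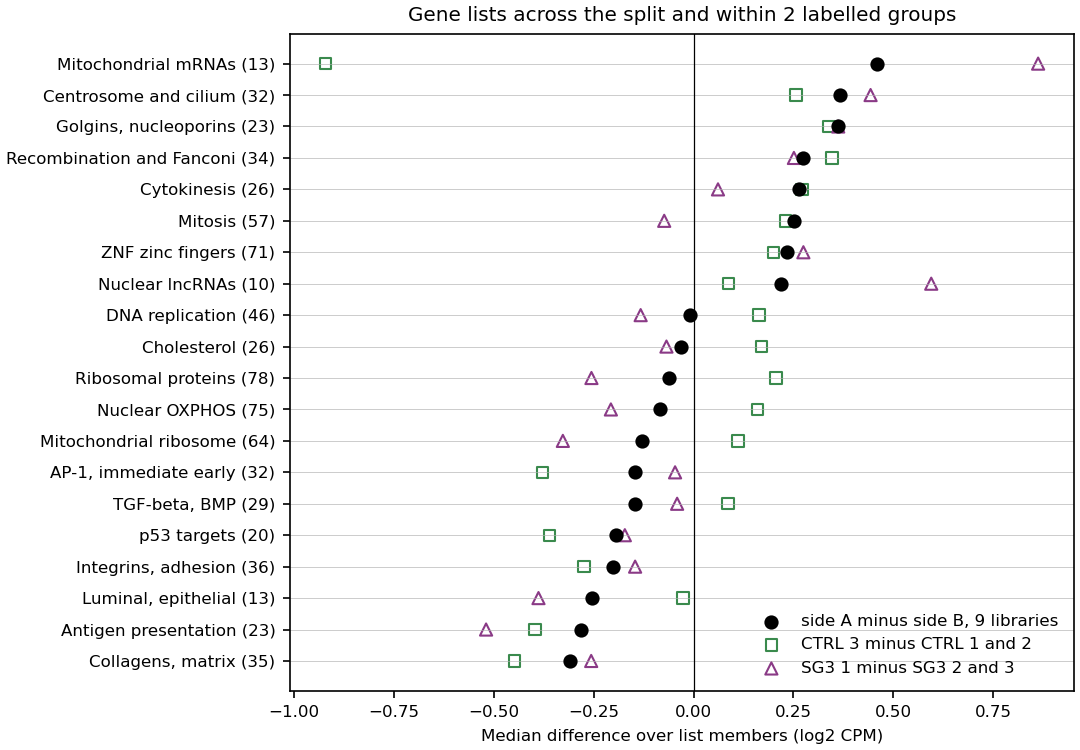
Median difference in log2 CPM over the members of each list (rows, kept members in brackets) for side A minus side B (filled circles), for CTRL replicate 3 minus replicates 1 and 2 (squares) and for SG3 replicate 1 minus replicates 2 and 3 (triangles). Centrosome and cilium genes are positive in all 3 (0.37, 0.26 and 0.44) and collagen and matrix genes negative in all 3 (-0.31, -0.45 and -0.26), whereas mitochondrial mRNAs are at -0.92 within CTRL and 0.86 within SG3.

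Mitochondrially encoded mRNAs varied greatly, with overlapping sides. Their median difference was 0.46 towards side A, yet none of the 13 was free of overlap, and it was -0.92 within CTRL and 0.86 within SG3. MT-ND4, a complex I subunit, was at 1247, 3374, 2252, 5348 and 3207 CPM in side A and 3628, 1577, 1565 and 1218 CPM in side B. The CTRL library with the highest level, replicate 1, was in side B, and the SG3 library with the highest, replicate 1, was in side A. Relative to all genes the median of the list, 0.45, moved to 0.74 or 0.72 when CTRL replicate 1 or CTRL replicate 3 was left out and was 0.22 when SG1 replicate 3 was. The 2 mitochondrial rRNAs had a median of 0.36 with overlapping libraries; relative to all genes it was 0.35, and 0.19 without SG1 replicate 3.

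Nuclear genes of the translation and respiration machinery were shifted slightly towards side B on median, with members far apart in both directions. Ribosomal proteins had a median of -0.06, at 0.21 within CTRL and -0.26 within SG3. RPL36 was at 116 to 172 CPM in side A and 281 to 287 CPM in side B, and RPL37 at 137 to 211 CPM against 256 to 324 CPM. RPS24, by contrast, was at 546 to 721 CPM in side A and 474 to 527 CPM in side B. Ribosomal protein genes have many processed pseudogenes, so the values are uncertain to that extent.

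Mitochondrial ribosomal proteins, encoded in the nucleus, had members on both sides. Of 64, 17 (26.6%) were higher throughout side B, beside 10.2% of all genes, and 7 (10.9%) throughout side A, beside 12.4%. The 7 had a transcript GC of 38.3% (MRPL19) to 46.7% (MRPS27), and the 17 had 46.8% (MRPS16) to 71.9% (MRPL41), with no overlap. MRPS34 was at 15.5 to 19.9 CPM against 37.7 to 42.2 CPM, and MRPS10 at 256 to 303 CPM against 185 to 218 CPM.

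The same relation ran through all genes. The median of side A minus side B was 0.41 for the 243 genes with a transcript GC under 35%, 0.23 for 40% to 45%, -0.095 for 50% to 55%, -0.34 for 60% to 65% and -0.42 for the 679 genes at 65% or more. It was lower in each bin of higher GC content. Within CTRL alone it went from 0.45 in the lowest to -0.45 in the highest, and within SG3 alone from 0.54 to -0.46. Both were oriented by the sides, so their likeness is a description and not an independent reading.

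Across 16601 genes with a GENCODE 29 transcript, the difference and transcript GC had a Pearson correlation of -0.61 and a Spearman correlation of -0.68. For GC at the last position of codons these were -0.64 and -0.70 over 13150 coding genes, and for log2 transcript length only 0.16 and 0.18. The genes share the same 9 libraries and are not independent, so no p-value is attached. Per library, the slope of centred log2 CPM on transcript GC was -0.16 to -0.07 per 10 points in side A and 0.13 to 0.18 in side B. Among the remaining measures, the share of even values among counts of 10 to 50 was 65.7% to 68.0% in side A and 62.9% to 65.6% in side B; its part in the result was not tested.

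**Figure D4:**
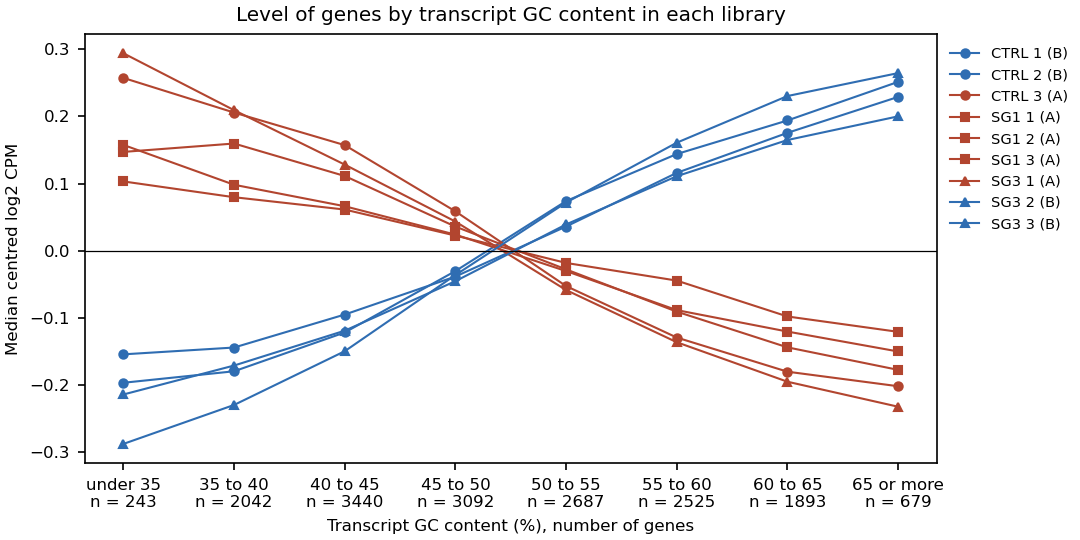
Median of log2 CPM centred on each gene's mean over 9 libraries (vertical axis) for genes grouped by transcript GC content (horizontal axis, percent, with the number of genes), 1 line per library. In genes under 35% GC the side A libraries lie at 0.10 to 0.29 and the side B libraries at -0.29 to -0.15; at 65% or more they lie at -0.23 to -0.12 and 0.20 to 0.26.

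Genes free of overlap differed accordingly in their structure. Median transcript GC was 40.4% for the 2078 higher in side A, 59.8% for the 1709 higher in side B and 49.0% for all genes, and at the last position of codons 38.8%, 75.2% and 59.4%. The median 3' untranslated region was 1730, 621 and 1011 bases, and the median span on the chromosome 56007.5, 14575 and 26118 bases. Chromosomes followed: the median difference was 0.21 on chromosome 13 and 0.18 on chromosome 4, where the median GC of genes was 44.3% and 43.5%. It was -0.21 on chromosomes 19 and 22, at 58.3% and 56.6%.

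To see what lay beyond base composition, the trend of log2 CPM on transcript GC was removed from each library. The genes free of overlap went from 2076 to 583 towards side A and from 1707 to 501 towards side B, of which 323 and 407 had been so before. The first component then held 19.8% of the variance, and 6 of 9 libraries kept their side: CTRL replicates 1 and 3 and SG1 replicate 2 changed. Its ends were then CTRL replicate 3 at -35.8 and SG1 replicate 3 at 40.4, which were also the ends of the second component before removal. Its sign was set to give side A the higher mean, so 6 of 9 does not show that the split remained. Across genes, the difference within CTRL and that within SG3 had a Pearson correlation of 0.17 before and -0.03 after.

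After removal, 7 of the 46 lists stood at least 0.15 from all genes, of which 5 had 2 to 6 kept genes: endothelial genes at 0.31, mitochondrial rRNAs at 0.18, basal genes at -0.31 (-0.33 before), fibroblast genes at -0.34 (-0.38 before) and small non-coding RNAs at -0.87. Homologous recombination and Fanconi genes went from 0.26 to 0.02 relative to all genes, ZNF genes from 0.23 to -0.01, centrosome and cilium genes from 0.36 to 0.09 and mitotic genes from 0.24 to 0.09. AP-1 and immediate early genes went from -0.15 to -0.0021 and integrin and adhesion genes from -0.21 to -0.04. The other 2 were antigen presentation and mitochondrially encoded genes. Antigen presentation genes went from -0.29 to -0.19 and mitochondrially encoded mRNAs from 0.45 to 0.27. With the trend on transcript length removed as well, antigen presentation genes stood at -0.146, short of 0.15, and mitochondrially encoded mRNAs at 0.34. A trend removed in this way takes with it any biological difference that follows GC content; the 2 cannot be told apart in these libraries, and what set the GC difference was not tested.

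**Figure D5:**
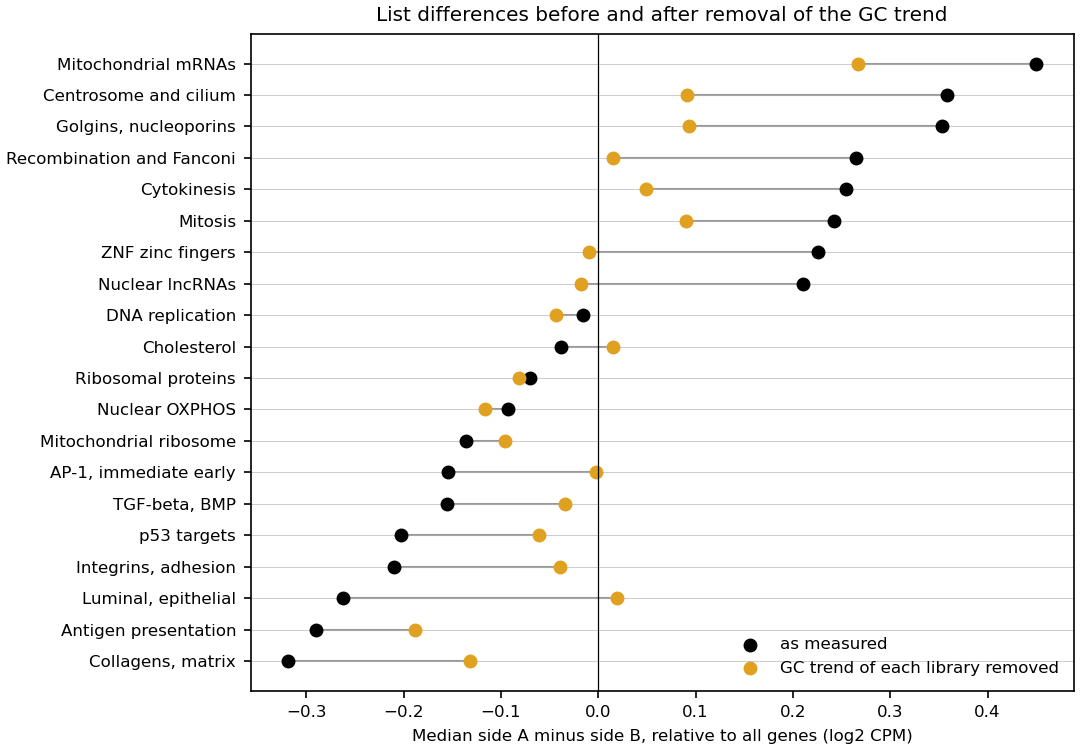
Median side A minus side B of each list relative to all genes (log2 CPM), as measured (black) and after the trend on transcript GC was removed from each library (yellow). Recombination and Fanconi genes move from 0.26 to 0.02, whereas antigen presentation genes move from -0.29 to -0.19 and nuclear OXPHOS genes, the nuclear-encoded respiratory chain, from -0.09 to -0.12.

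Some genes of side B were hardly affected by the removal. SNHG32 went from -2.23 to -2.18, SAA1 from -1.70 to -1.64, ATP5IF1 from -1.51 to -1.44 and PFDN6 from -1.41 to -1.32, all with transcript GC near the middle of the range, at 50.3% to 51.6%. SNHG32 (chr6:31834608-31839766) and PFDN6 (chr6:33289302-33298401) lie in the same region of chromosome 6 as HLA-E (chr6:30489467-30494205) and HLA-DRB1 (chr6:32578769-32589848). AGPAT1 (chr6:32168212-32178096) lies there too. Before removal each of these genes was higher throughout side B, and a part of position was not tested. Of 828 kept genes on the whole chromosome, 8.57% were higher throughout side B, beside 10.2% of all genes. The share within this region was not counted. COL4A2 (from -0.85 to -0.49) and FAM207A (from -1.45 to -1.04) remained without overlap. FLNA went from -0.45 to -0.09 and ZYX from -0.46 to -0.06. Towards side A, FAM133A went from 0.90 to 0.53 and CEP290 from 0.63 to 0.26.

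Of 75 nuclear genes of the respiratory chain, 15 were higher throughout side B before removal, where 10.3% of all genes with a transcript were, and 13 after it, where 3.02% were. Towards side A the counts were 6 before and 0 after, with 12.5% and 3.51% of all genes. As measured, the list median was 0.16 within CTRL and -0.21 within SG3, so the divided groups went in opposite directions. The list scores of the sides overlapped, with CTRL replicate 3 of side A the highest of the 9 libraries (0.12). COX6A1, a cytochrome oxidase subunit, was at 13.6, 12.9, 10.8, 9.96 and 9.67 CPM in side A and 21.7, 21.5, 26.5 and 23.3 CPM in side B. COX8A, of the same complex, was at 33.3 to 45.6 CPM against 68.3 to 86.4 CPM, ATP5MF, of the ATP synthase, at 18.8 to 25.6 CPM against 40.8 to 46.0 CPM, and NDUFA1, of complex I, at 17.9 to 25.8 CPM against 34.5 to 41.2 CPM. These 4 genes had no overlap after removal either; they were chosen after their values were seen.

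Comparisons among the labelled groups depended on which CTRL libraries were the reference. With all 3 CTRL libraries as the reference, mitotic genes had a median of 0.20 in SG1, and with CTRL replicate 3, the reference of the same side, 0.01. Homologous recombination and Fanconi genes changed from 0.13 to -0.07, centrosome and cilium genes from 0.25 to 0.08 and collagen and matrix genes from -0.16 to 0.21. Mitochondrially encoded mRNAs went from 0.66 to 1.31, but this change did not follow the split. Their median was -0.92 within CTRL against 0.46 for side A minus side B. CTRL replicate 3 had their lowest score of the 9 libraries (-0.76). The second reference is a single library, so these values have no replicate check. CTRL replicate 3 was also an end of the second component, at -40.1. For every list here, the part of its side and the part of that library itself cannot be told apart.

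SG3 and CTRL could be compared within each side. Of all genes, 206 (1.23%) were at least 1.5-fold higher in SG3 in both sides and 162 (0.965%) at least 1.5-fold lower. PDK4, a kinase that restrains pyruvate use and is induced in fasting, was at 2.55 CPM in CTRL and 8.26 CPM in SG3 in side A, and at 1.10 and 3.12 CPM in CTRL and 6.47 and 5.83 CPM in SG3 in side B. CPT1A, the gate of mitochondrial fatty acid oxidation, was at 39.3 and 108 CPM in side A and at 56.9 and 66.6 CPM against 106 and 101 CPM in side B. In both genes each SG3 library was above each CTRL library.

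MMP1, a collagenase, had an SG3 minus CTRL difference of 0.79 (log2) in side A and 2.69 in side B, where SG3 replicate 2 reached 33.3 CPM and SG3 replicate 3 10.7 CPM. DMBT1 and SPANXB1, next in rank, were under 1.5-fold in side A, at 0.55 and 0.49, and their CTRL and SG3 libraries overlapped: DMBT1 was at 12.6 CPM in CTRL replicate 1 and 11.3 CPM in SG3 replicate 3. Lower in SG3 were SCD, the stearoyl-CoA desaturase, and SREBF1, the transcription factor of lipid synthesis. SCD was at 269 CPM in CTRL and 87.6 CPM in SG3 in side A, and at 176 and 128 CPM against 67.8 and 56.4 CPM in side B. SREBF1 was at 160 and 88.4 CPM in side A and at 202 and 154 CPM against 125 and 108 CPM in side B. CHAC1 and ADM2, both targets of the integrated stress response, had SG3 minus CTRL differences of -1.08 and -0.89 in side A and -0.97 and -0.84 in side B on the log2 scale. None of these genes was separated by the sides.

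Markers of other cell types were mostly at or near zero on both sides. Among leukocyte markers CD3E, MS4A1 and TYROBP had no count in any of the 9 libraries, and among fibroblast markers DCN and DPT had none. The summed level of 13 leukocyte markers was 11.8 to 17.2 CPM in side A and 12.1 to 23.3 CPM in side B, and that of 13 fibroblast markers 34.7 to 65.3 and 48.4 to 65.8 CPM. The 20 luminal and epithelial markers summed to 1322 to 1769 CPM in side A and 1760 to 2096 CPM in side B, with ESR1 at no more than 0.0964 CPM and PGR and FOXA1 without a count. KRT8 was 1.37-fold and ERBB2 1.38-fold higher in side B, with a transcript GC of 60.2% and 60.3%; fewer cells of a type and less RNA per cell cannot be told apart in such bulk samples. The marker lists rested on few kept genes: the median was -0.25 over 13 luminal, -0.32 over 6 basal, -0.37 over 6 fibroblast, -0.25 over 2 leukocyte and 0.16 over 4 endothelial genes. Relative to all genes the leukocyte median, -0.26, was -0.13 when CTRL replicate 1 was left out and -0.42 when SG3 replicate 3 was. The endothelial one, 0.15, was -0.057 without SG3 replicate 1, 0.084 without SG1 replicate 3, 0.087 without SG3 replicate 2, and 0.26 to 0.28 without CTRL replicate 1, CTRL replicate 3 or SG1 replicate 2.

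The overexpression libraries took no part in choosing the sides and gave an independent reading of the genes. KIF20A was at 101, 143 and 124 FPM (the unit of CPM, for fragments) in EV and 1348, 269 and 896 FPM in KIF20A_OE. Of the 97 genes at least 1.5-fold higher in side A, 63 were tested, and by limma with Benjamini-Hochberg adjustment 29 (46.0%) rose and 9 (14.3%) fell in KIF20A_OE. Of the 502 higher in side B, 433 were tested, and 210 (48.5%) rose and 97 (22.4%) fell. Among all 15265 genes tested 46.2% rose and 23.4% fell. By limma, the shares that rose in both sets, and that fell in the side B set, were near those of all genes. The share that fell in the side A set was lower, and these differences were not tested. Median log2 differences were 0.50, 0.43 and 0.37 in the same order.

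The balance of rises and falls depended on the method. The limma values were not scaled further between libraries, and their median log2 difference over all genes was 0.37. The edgeR run did scale the libraries to each other, and it kept other genes. The part of each step was not tested. The quasi-likelihood test of edgeR on the whole fragments recovered from the values called 5673 rises and 5216 falls among 17078 genes. It called 19 and 13 among 70 genes of the side A set and 147 and 132 among 455 of the side B set. In the side A set both shares lay below those of all genes, which was not tested. Each library was also given a score, the mean centred log2 value of the side A set minus that of the side B set. It was -0.20, -0.038 and 0.0021 in EV and 0.07, 0.09 and 0.08 in KIF20A_OE, a difference of 0.16 with an exact two-sided permutation p of 0.1, the smallest that 3 against 3 libraries allow. The mean transcript GC was 50.2% to 50.6% in EV and 49.99% to 50.06% in KIF20A_OE, again with an exact permutation p of 0.1.

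Single members moved in both directions in KIF20A_OE. In the side A set, FPGT rose from 14.96 ± 0.197 to 34.01 ± 1.64 FPM (SD, n = 3 each, limma adjusted p = 0.000119), and FCHO2 fell from 78.2 ± 3.08 to 39.3 ± 1.47 FPM (limma adjusted p = 0.000101). In the side B set, ATP5IF1 rose from 83.3 ± 4.56 to 199 ± 6.51 FPM, and PSMB10 fell from 6.94 ± 1.32 to 0.869 ± 0.104 FPM, with limma adjusted p of 1.64e-05 and 2.89e-05. EDF1, at 134 ± 11.2 and 128 ± 21.3 FPM, and CEP290, at 69.1 ± 5.95 and 83.8 ± 7.65 FPM, did not pass the threshold (limma adjusted p of 0.625 and 0.0832). The log2 difference of CEP290, 0.27, lay below the median of all genes tested, 0.37.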

How the data were processed

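RNA of MDA-MB231 cells was sequenced in 15 libraries, grouped by their titles. The depletion values are gene-level raw counts as the authors deposited them. The overexpression values are called FPKM per the labels, but the deposited columns each sum to 1000000 and hold whole multiples of a step (100% of values, tolerance 0.001 fragments), so they are CPM of fragments (FPM). Per the submitters' processing notes the tools include Trim Galore 0.6.4, STAR 2.7.3a and featureCounts (Subread 1.6.3), and the build is hg38. Annotation and strand setting are unstated there.

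From the counts, log2 CPM (TMM library sizes, prior count 2) of the 16786 genes of 60651 kept by the expression filter of edgeR 4.0.16 in R 4.3.3 entered the principal components, with genes centred and not scaled. CPM of named genes use the same library sizes. A count of 0 allows up to 0.0588 to 0.0734 CPM per library (3 counts), and this covers counting error only. It takes single counts as independent. Even values made up 62.9% to 68.0% of counts of 10 to 50, so the limit may be too low. GENCODE 29 (98.9% of kept genes matched) gave GC content and length of 1 transcript per gene. Trends were removed with splines of 5 degrees of freedom. KIF20A_OE was compared with EV by limma 3.58.1 (trend and robust) on log2(FPM + 1), without further scaling between libraries. Genes averaging 1 FPM or more were fitted, with an adjusted p threshold of 0.05. Folds on that scale are understated for low genes. No label calls replicates separate cultures, so the p-values reflect only how far these libraries spread, possibly for technical reasons. The methods were tested on simulated data.

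The members and the 46 lists were chosen with earlier results of these data known. Named genes were KIF20A, the 15 largest differences per direction among protein-coding genes without overlap and at least 5 CPM, 5 per direction among other genes, 3 members of each list at least 0.15 from all genes, and 5 per direction for SG3 against CTRL in both sides; others were named after their values were seen. Alternatives covered scaling, filters, prior count, mitochondrial genes, gene choice, each library left out, GC and length trends, pseudocount, replicate block and edgeR.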

Additional observations from a re-analysis of the deposited data

Results flagged for a closer look

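Only the 21 lists at least 0.15 from all genes were searched here. For 6 of them, the score of SG3 minus CTRL had 1 sign in side A and the opposite sign in side B, with every library of a side moving the same way. The pattern is not particular to them, since some lists nearer to all genes shared it. NF-kB and cytokine genes scored -0.20 in CTRL and 0.36 in SG3 in side A, and 0.27 and 0.016 against -0.17 and -0.21 in side B. Mitochondrial ribosomal proteins were another such list. Side A has 1 library per group and side B has 2, and the difference between the sides was not tested. For p53 targets the score difference was 0.12 in side A and -0.06 in side B. For collagen and matrix genes it was 0.12 and -0.15, and for AP-1 and immediate early genes 0.38 and -0.23. ZNF zinc finger genes gave 0.13 and -0.04, and nuclear long non-coding RNAs 0.78 and -0.29. The leukocyte list, of which only CD14 and CSF1R passed the filter, gave 0.20 and -0.67.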

How the results depend on the processing

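All 9 libraries kept their side with library totals, DESeq2 size factors, no low-count filter, no mitochondrial genes, a prior count of 0.5, genes of unit variance or genes with few shared exons. With the 1000 most variable genes 6 kept it, and 6 with the trend on GC, or on GC and length, removed. In each of these settings the ends of the first component were CTRL replicate 3 and SG1 replicate 3. They were also the ends of the second component as first measured, so the count of 6 does not show that the split remained. With GC and length removed, the genes without overlap were 585 and 532 and 6 lists stood apart (GC alone: 583, 501 and 7). The list lost was antigen presentation, at -0.146, and the cause was not tested. These trends and the filter on shared exons were added after the data were seen.

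With 1 of 9 libraries left out, the first component held 21.8% to 25.7%, 7 to 8 of 8 libraries kept their side (7 without SG3 replicate 2, where SG1 replicate 3 scored -2.16), the genes without overlap were 2002 to 2503 and 1812 to 2353, and 18 to 21 lists stood apart. Of 189 list medians with a library left out, 184 moved by less than the spread between libraries. The endothelial median, 0.15 over 4 low genes, ran from -0.057 (without SG3 replicate 1) to 0.28 (without CTRL replicate 3) and was -0.028 with no low-count filter. With GC removed, zinc fingers became -0.0095, nuclear long non-coding RNAs -0.018 and luminal genes 0.019, and with length too -0.015, -0.014 and 0.015. The 2 small non-coding RNAs, at -1.12, were at -0.25 with no low-count filter. No low-count filter gave 702 genes higher and 521 lower in SG3 in both sides.

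In KIF20A_OE, edgeR called 19 rises among 70 genes tested in the side A set, against 29 among 63 by limma. Leaving out a library gave 24 to 32 rises and 9 to 10 falls there, and 191 to 208 and 90 to 97 in the side B set. Replicate numbers did not pair EV and KIF20A_OE (correlations of deviations 0.036, 0.058 and 0.014); with a replicate block the calls were 29 and 9 in the side A set and 209 and 98 in the side B set.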

Other observations

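Genes of glycolysis and hypoxia did not stand apart as measured, with a median of -0.01 relative to all genes over 37 members, but stood at 0.13 towards side A after the trend on GC content was removed. Their median transcript GC was 54.2%, above the 49.0% of all genes. Lysosomal genes went from 0.02 to 0.11 over 35 members, with a median GC of 52.9%. NF-kB and cytokine genes were almost unmoved, at 0.09 before and 0.10 after, but their median was -0.26 within CTRL and 0.64 within SG3, so the divided groups went in opposite directions, as they did for mitochondrially encoded mRNAs.

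In the septin family, SEPTIN7 was at 301 to 372 CPM in side A and 248 to 264 CPM in side B, and SEPTIN9 at 363 to 404 CPM against 458 to 527 CPM. Transcript GC was 39.0% in SEPTIN7 and 61.2% in SEPTIN9. After removal of the GC trend the differences of side A minus side B were 0.07 and -0.03. The 2 genes were chosen after their values were seen.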
